A study of Mus musculus with 12 samples.

Results

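Ly6c1 and Ly6e are mouse genes of the Ly6 family of small surface antigens, and their transcripts were followed on Illumina bead arrays in NIH-3T3 cells, an immortalised line of mouse embryonic fibroblasts. The set was defined as every probe annotated to Ly6c1, Ly6a or Ly6e, and it holds 3 of the 45281 probes. Ly6c1 has 1 probe (ILMN_1254927) and Ly6e has 2 (ILMN_2776278 and ILMN_2984828). Ly6a has 0 probes in the annotation used and was not analysed here, so 2 of the 3 genes were measured, of 19057 genes with a probe in all. The genes were chosen by their differences between the groups on these same arrays, so those differences are given as a description without a test.

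There were 3 groups of 4 arrays, labelled biological replicates. U17_KD is a stable clone with the construct ShSnhg3, named for a short hairpin against Snhg3, the gene whose introns give rise to the small nucleolar RNA U17. U17_OE is a stable clone with the plasmid pMDβglobinU17b, and WT is NIH-3T3 without either construct. All 3 groups were kept for 24 h in LPDS medium (lipoprotein-deficient serum). The study set these groups against each other to look for messenger RNAs that change with U17. Each manipulated group is 1 clone, and the control is not described as carrying an empty construct, so an effect of U17 and a property of the clone cannot be told apart in any comparison below. P-values measure the spread between arrays of 1 clone or line. No probe was named Snhg3, Snora73a or Snora73b (0 probes), so the labels could not be checked on the targeted RNA.

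Ly6 proteins share a compact cysteine-rich domain, the LU domain, and most are held on the cell surface by a glycosylphosphatidylinositol (GPI) anchor that is added in the endoplasmic reticulum. The Ly6C antigen, encoded by Ly6c1 and its close relative Ly6c2, is used to sort mouse monocytes and is also found on endothelial cells and some T cells. Ly6a encodes Sca-1, a marker of mouse haematopoietic stem cells and of mesenchymal progenitors. Ly6e is widely expressed, affects the entry of several viruses, and in the mouse placenta serves as the receptor of syncytin-A. Several Ly6 genes are induced by interferons in mouse cells.

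The stretch upstream of the start of Ly6c1, the member with the largest differences, is shown with that of Ly6c2 and of Isg15 and Gbp2, interferon-induced genes described further on. Each line gives the 250 bases before a transcript start in RefSeq on GRCm38.p6, from chr15:75048838-75049087 (minus strand) for Ly6c1, chr15:75111972-75112221 (minus strand) for Ly6c2, chr4:156200819-156201068 (minus strand) for Isg15 and chr3:142620413-142620662 (plus strand) for Gbp2. Capitals mark matches on either strand to the interferon-stimulated response element, searched as GAAA, then 2 bases of any kind, then GAAA, or to the gamma-activated site, searched as TTCNNNGAA.
Ly6c1: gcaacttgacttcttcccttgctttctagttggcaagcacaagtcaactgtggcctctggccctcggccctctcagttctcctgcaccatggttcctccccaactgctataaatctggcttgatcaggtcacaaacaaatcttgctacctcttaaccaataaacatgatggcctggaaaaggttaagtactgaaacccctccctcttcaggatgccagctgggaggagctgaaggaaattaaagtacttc
Ly6c2: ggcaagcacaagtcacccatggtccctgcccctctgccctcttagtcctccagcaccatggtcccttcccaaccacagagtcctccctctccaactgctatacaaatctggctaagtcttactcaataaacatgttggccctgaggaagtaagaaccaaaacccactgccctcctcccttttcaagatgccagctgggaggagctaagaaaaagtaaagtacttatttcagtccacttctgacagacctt
Isg15: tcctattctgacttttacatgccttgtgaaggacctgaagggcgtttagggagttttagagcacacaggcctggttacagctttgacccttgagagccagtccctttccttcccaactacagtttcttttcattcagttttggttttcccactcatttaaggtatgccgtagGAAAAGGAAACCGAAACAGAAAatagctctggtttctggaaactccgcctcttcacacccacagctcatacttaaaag
Gbp2: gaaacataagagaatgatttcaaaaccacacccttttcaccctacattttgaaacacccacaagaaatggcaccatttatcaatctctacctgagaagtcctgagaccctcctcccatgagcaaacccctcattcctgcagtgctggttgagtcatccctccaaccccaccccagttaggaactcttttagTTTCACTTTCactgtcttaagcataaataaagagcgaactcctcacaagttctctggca
Neither motif was found in the windows of Ly6c1 or Ly6c2, at either of the 2 starts listed for each. The windows of Isg15 and Gbp2 hold 3 and 1 matches to the interferon-stimulated response element, those of Isg15 overlapping one another. Of 32851 promoters, 2.98% hold a match to the response element and 7.02% a match to the gamma-activated site. Among the 38 listed interferon-induced genes with a promoter entry, 18 hold the response element, 8 the gamma-activated site and 21 at least one of them. Ifitm1, Ifitm3 and Lgals3bp, also described further on, hold neither. What the absence of a match means for Ly6c1 was not tested. Over 210 aligned bases the upstream stretches of Ly6c1 and Ly6c2 are 81.0% identical. The probe's own sequence was not given, so whether the Ly6c1 probe also captures Ly6c2 transcripts was not tested, and Ly6c2 has no probe of its own here.

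Ly6c1 was highest in the knockdown clone, intermediate in the overexpression clone and lowest in WT. Its normalized intensity, a background-subtracted linear brightness without a physical unit, was 2127, 2000, 1852 and 1914 on U17_KD replicates 1 to 4. It was 301, 329, 365 and 380 on the U17_OE arrays, and 114, 96.8, 102 and 93.9 on the WT arrays. The groups were apart on all 12 arrays: the lowest U17_KD array stood 4.88-fold above the highest U17_OE array, and the lowest U17_OE array 2.63-fold above the highest WT array. The means were 1974 ± 119 in U17_KD, 344 ± 35.5 in U17_OE and 102 ± 9.11 in WT (SD, n = 4 each). The coefficient of variation was similar in the groups, at 6.03%, 10.3% and 8.95%. All WT values lay above the detection level of 30.5, so the fold against WT is not a bound. In bulk RNA, more cells with a transcript and more of it per cell cannot be told apart.

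On the log2 scale the Ly6c1 probe was higher in U17_KD than in WT by 4.09 ± 0.10 (SE), and its mean normalized intensities stood in a ratio of 19.4. The log2 difference placed it 5th from the top of the 16706 probes detected on at least 4 arrays, whose median difference was -0.02. In U17_OE it was higher than in WT by 1.62 ± 0.10, or 3.07-fold, which placed it 18th, and between the clones the difference (U17_KD minus U17_OE) was 2.47 ± 0.10, or 5.56-fold. The clones' differences from WT share the WT arrays. The size depends on how the low WT values are treated: with a log offset of 50 in place of 16 the Ly6c1 differences from WT were 3.74 in U17_KD and 1.38 in U17_OE.

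Ly6e followed the same order, with smaller differences and a wider spread in U17_OE. At ILMN_2776278 the normalized intensity was 4368, 4490, 4530 and 3942 in U17_KD, then 2063, 2039, 3839 and 2606 in U17_OE, against 1735, 1713, 1360 and 1693 in WT. All U17_KD arrays lay above all U17_OE arrays here, by 1.03-fold at the nearest pair, with U17_OE replicate 3 close to the U17_KD level. At ILMN_2984828 the values were 1697, 1857, 1708 and 1658 in U17_KD, then 801, 883, 1841 and 995 in U17_OE, against 712, 753, 529 and 667 in WT. At this probe U17_OE replicate 3 lay within the U17_KD range, so the clones overlapped, and the lowest U17_OE array was 1.06-fold above the highest WT array. The levels of U17_OE and WT were therefore next to each other in this order, while the lowest U17_KD array was 2.27-fold and 2.20-fold above the highest WT array at the 2 probes.

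The mean Ly6e intensities at ILMN_2776278 were 4333 ± 269 in U17_KD, 2637 ± 843 in U17_OE and 1625 ± 178 in WT (SD, n = 4 each). Those at ILMN_2984828 were 1730 ± 87.1, 1130 ± 480 and 665 ± 97.7 in the same order. Levels of different probes cannot be set against each other, so neither Ly6e probe is called brighter than Ly6c1. The log2 differences of U17_KD from WT were 1.41 ± 0.15 and 1.37 ± 0.18 (SE) at the 2 probes, or 2.66-fold and 2.58-fold, ranks 225 and 251 of 16706. Those of U17_OE from WT were 0.65 ± 0.15 and 0.68 ± 0.18, or 1.57-fold and 1.60-fold. Between the clones (U17_KD minus U17_OE) they were 0.76 ± 0.15 and 0.69 ± 0.18. The Ly6e probes gave nearly the same differences, and their log2 values had a Pearson r of 0.988 over the 12 arrays.

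**Figure D1:**
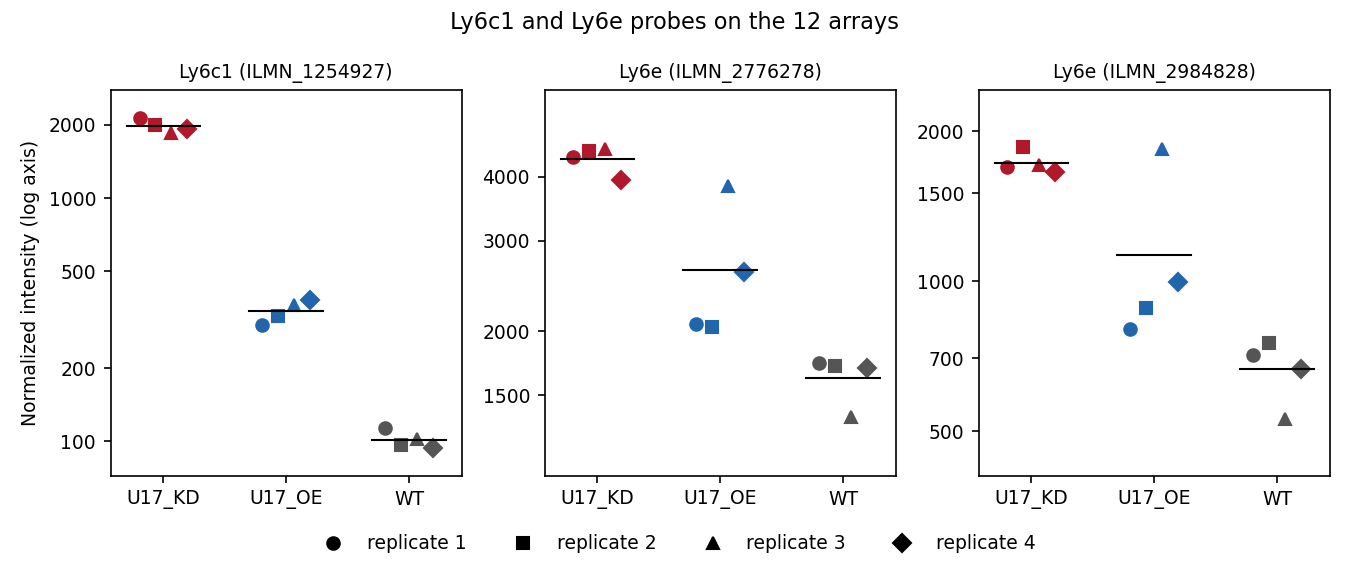
Normalized intensity (log axis) of the Ly6c1 probe and both Ly6e probes on each array of U17_KD, U17_OE and WT; marker shapes are replicate numbers and bars are group means. Ly6c1 falls into 3 separate bands around 1974, 344 and 102, whereas U17_OE replicate 3 reaches 3839 and 1841 at the Ly6e probes, next to or within the U17_KD values.

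Without overlap and above WT were 3 of 3 member probes in U17_KD and 3 of 3 in U17_OE, and 2 of 3 were apart between the clones. Such separation was common: 20.2% of all kept probes were entirely higher in U17_KD than in WT, 7.34% in U17_OE than in WT, and 14.3% in U17_KD than in U17_OE. By the fit, limma's moderated test with Benjamini-Hochberg adjustment at 0.05, 37.3% of kept probes were called between U17_KD and WT, 11.5% between U17_OE and WT and 30.1% between the clones. Since these contrasts chose the members, nothing is read from the counts. The share called between U17_OE and WT moved with single arrays, 2981 probes without U17_OE replicate 3 and 1261 without U17_OE replicate 4, against 1925 with all arrays.

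**Figure D2:**
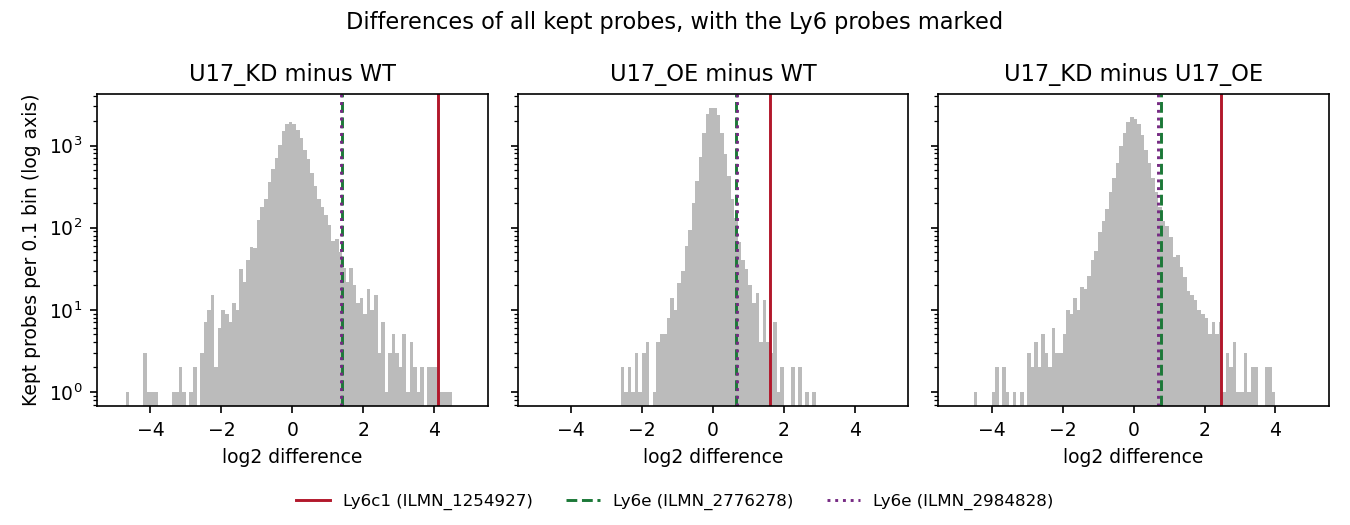
Histograms of the log2 difference of all 16706 kept probes (bins of 0.1, counts on a log axis) in the 3 comparisons, with vertical lines at the Ly6 probes. Ly6c1 lies in the outer right tail at 4.09, 1.62 and 2.47, and the Ly6e lines lie together on the right shoulder at 1.41 and 1.37, 0.65 and 0.68, and 0.76 and 0.69.

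U17_OE replicate 3 stood apart from its group as a whole: the SD over kept probes of its differences from its group mates was 0.393 (log2), the highest of the 12 arrays. On this array Ly6e was above the mean of its group mates by 0.78 and 1.04 on the log2 scale, 3839 against 2236 and 1841 against 893. At ILMN_2984828 only 0.281% of kept probes were at least as high relative to their mates, and at ILMN_2776278 1.89%. Ly6c1 on the same array was above its mates by 0.12, as 39.3% of probes were. The median shift there was 0.31 for fibroblast markers, 0.06 for interferon-induced genes, -0.51 for mesenchymal progenitor markers and -0.01 for all genes; the part of these in the Ly6e values was not tested. Leaving the array out, the U17_OE mean was 2236 ± 321 and 893 ± 97.6 at the Ly6e probes (SD, n = 3). The Ly6e differences of U17_OE from WT were then 0.45 and 0.42, and those of U17_KD from U17_OE were 0.96 and 0.95. The Ly6c1 differences changed little, to 1.59 and 2.50.

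**Figure D3:**
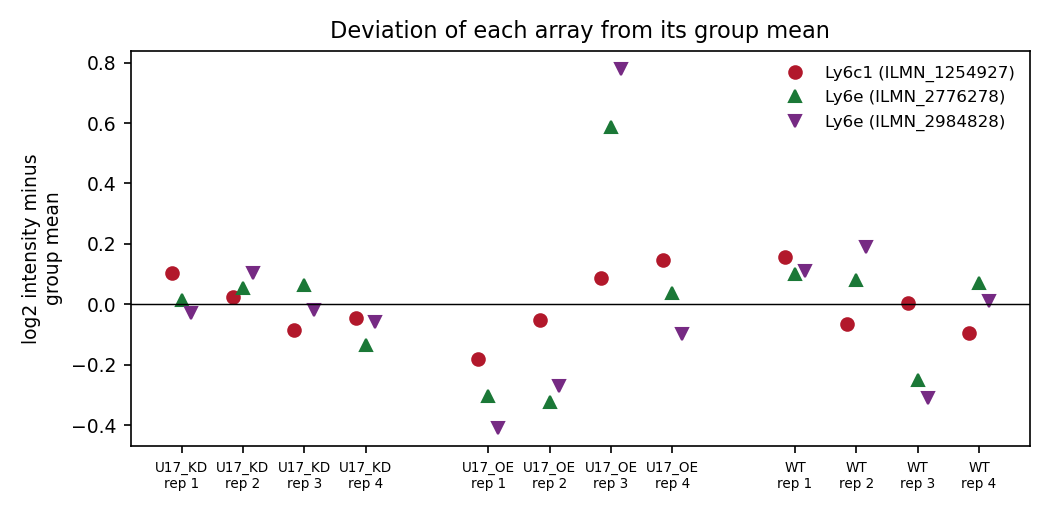
Deviation of each array's log2 intensity from its own group mean, for Ly6c1 (circles) and the Ly6e probes (triangles), by group and replicate. The Ly6e triangles move together on nearly every array and lie highest on U17_OE replicate 3, where Ly6c1 does not stand out.

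Within groups the Ly6e probes deviated together, with an r of 0.962 over 12 arrays and 0.865 over 11 without U17_OE replicate 3. The deviations of Ly6c1 and Ly6e (ILMN_2776278) had an r of 0.470, so arrays high in one were only loosely high in the other. These points share the arrays and their normalization.

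The genes whose levels were most like Ly6c1 over the 12 arrays were Stard5 (r = 0.995), a sterol-binding START domain protein, Gstm2 (0.994), a glutathione transferase, Fcgrt (0.993), the neonatal Fc receptor, Casp4 (0.993), an inflammatory caspase, and Aqp5 (0.993), a water channel. Their log2 differences of U17_KD from WT were 1.29 for Stard5, 1.57 for Gstm2, 1.27 for Fcgrt, 1.91 for Casp4 and 3.18 for Aqp5. Without U17_OE replicate 3, 3 of these 5 remained in the top 5. Most like Ly6e were Slc27a1 (r = 0.989), a fatty acid transport protein, Rgs3 (0.985), a regulator of G protein signalling, Slc35a2 (0.984), the UDP-galactose transporter of the Golgi, Smox (0.976), spermine oxidase, and Sparc (0.974), a secreted matrix glycoprotein; 4 of 5 remained without that array. Ly6e itself came 259th in likeness to Ly6c1, with an r of 0.934. These r values reflect mainly the group means, since the arrays fall into 3 groups.

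Of 46 other genes of the Ly6/uPAR family, 37 had a probe and only 5 were detected on at least 4 arrays. Of the remaining 32 with a probe, 29 were detected on no array. Relative to WT, 2 of the 5 rose in U17_KD and 1 fell, and 0 rose and 2 fell in U17_OE; between the clones 2 were higher and 1 lower in U17_KD. Their median log2 difference from WT was 0.07 in U17_KD and -0.30 in U17_OE, against -0.02 and -0.01 for all 9108 genes with a kept probe, of which 40.5% were called in U17_KD, 12.8% in U17_OE and 33.1% between the clones.

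Plaur, the receptor of urokinase, ran opposite to Ly6c1 and Ly6e. Its normalized intensity was 242, 249, 264 and 281 in U17_KD, then 425, 600, 432 and 429 in U17_OE, against 735, 748, 866 and 750 in WT, and no groups overlapped. Plaur fell by 1.53 ± 0.11 on the log2 scale in U17_KD (SE; limma adjusted p = 4.62e-09) and by 0.71 ± 0.11 in U17_OE (limma adjusted p = 0.000362). The clones differed as well, by -0.82 (U17_KD minus U17_OE, limma adjusted p = 2.13e-05).

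Lynx1, a GPI-anchored modulator of nicotinic acetylcholine receptors, had intensities of 503, 482, 506 and 554 in U17_KD, then 214, 164, 166 and 186 in U17_OE, against 244, 235, 253 and 227 in WT. It was high in U17_KD only, and the lowest of the 3 groups was U17_OE. Lynx1 rose by 1.05 ± 0.10 in U17_KD (limma adjusted p = 2.34e-07) and fell by 0.37 ± 0.10 in U17_OE (limma adjusted p = 0.025). Its other kept probe had a difference of 0.15 in U17_OE (limma adjusted p = 0.672), so the direction there rests on 1 probe, and the call was lost under 7 of 22 alternatives, 4 of which left out 1 array (replicate 1 or 3 of WT, replicate 2 or 4 of U17_OE).

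Cd59a, which blocks the membrane attack complex of complement, had intensities of 686, 595, 499 and 489 in U17_KD, then 313, 448, 293 and 353 in U17_OE, against 386, 315, 433 and 478 in WT. Cd59a rose by 0.48 ± 0.15 in U17_KD (limma adjusted p = 0.0145), a call lost without U17_KD replicate 1 or WT replicate 2, and differed from WT by -0.19 in U17_OE (limma adjusted p = 0.473). Psca, prostate stem cell antigen, had differences of 0.07 in U17_KD and 0.33 in U17_OE (limma adjusted p = 0.751 and 0.198). Pinlyp, which carries a LY6/PLAUR domain, was detected on 1 U17_KD array, 0 U17_OE arrays and 3 WT arrays. It differed from WT by -0.30 in U17_KD (limma adjusted p = 0.244), and in U17_OE, where only a bound can be given, it was at least 1.10-fold lower without passing the test (limma adjusted p = 0.377).

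In the RefSeq gene order on chromosome 15, Ly6e, Ly6a and Ly6c1 lie in a run of Ly6 genes that is flanked by Gml2, Cyp11b1 and Cyp11b2. Of the 14 genes within 5 places of a member, members included, 6 had no probe, 5 were below the detection filter and 3 were kept: Ly6e, Ly6c1 and Cyp11b2, aldosterone synthase. Cyp11b2 was 0.00 ± 0.16 from WT in U17_KD (limma adjusted p = 0.995) and -0.14 ± 0.16 in U17_OE (limma adjusted p = 0.641). No other neighbour could be measured against Ly6c1.

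Among the kept genes of the interferon-induced list, more rose in U17_KD than fell. Of 50 listed genes, 48 had a probe and 21 were kept; in U17_KD 11 rose, 4 fell and 6 did not pass, with a median of 0.35, while 20.0% of all genes rose and 20.4% fell. In U17_OE 5 rose and 0 fell (median 0.05), against 6.48% and 6.37% of all genes. Between the clones 10 were higher and 2 lower in U17_KD (median 0.28), as were 16.5% and 16.5% of all genes. The list was chosen with earlier results of these data known, so its counts are a description and not a test of the list.

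Gbp2, an interferon-inducible GTPase, had intensities of 1212, 1085, 1247 and 1190 in U17_KD, then 219, 235, 216 and 218 in U17_OE, against 212, 240, 239 and 266 in WT. Only the U17_KD arrays stood apart: Gbp2 was 2.24 ± 0.09 above WT in U17_KD (limma adjusted p = 1.96e-12) and -0.10 from WT in U17_OE (limma adjusted p = 0.58). The other probes of Gbp2 were detected on 0 arrays, so these values rest on 1 probe. Gbp3, a related GTPase, was detected on 4 U17_KD arrays and on 0 of the others, at least 2.14-fold higher. It passed the detection filter only through U17_KD, so no p-value is given, though it is counted among the genes that rose.

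Isg15, a ubiquitin-like protein, had the same order of groups as Ly6c1, with 123, 111, 120 and 111 in U17_KD, then 54.3, 69.6, 86.0 and 73.3 in U17_OE, against 40.2, 36.5, 33.7 and 46.8 in WT. It rose by 1.27 ± 0.14 in U17_KD (limma adjusted p = 7.07e-07) and by 0.64 ± 0.14 in U17_OE (limma adjusted p = 0.00447). Ifitm3, a membrane protein that restricts virus entry, had 4741, 4813, 4286 and 4699 in U17_KD, then 2876, 3419, 4358 and 3745 in U17_OE, against 1964, 2004, 1627 and 1794 in WT. It rose by 1.32 and 0.95 in the clones (limma adjusted p = 1.20e-08 and 7.57e-06). Its highest U17_OE value was on replicate 3, as for Ly6e, Isg15 and Lgals3bp, while that of Gbp2 was on replicate 2.

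Ifitm1 and Ifitm2, relatives of Ifitm3, rose by 1.29 and 0.72 in U17_KD (limma adjusted p = 2.49e-08 and 1.61e-05) and by 0.86 and 0.53 in U17_OE (limma adjusted p = 3.03e-05 and 0.00185). The other probes of Ifitm1 were below the detection filter. Lgals3bp, a secreted galectin-binding glycoprotein, rose by 1.55 in U17_KD (limma adjusted p = 1.04e-07). Ifi27 was higher in U17_KD than in U17_OE by 0.77 (limma adjusted p = 4.11e-06). Other genes of the list went the opposite way. H2-D1, Irgm1 and Bst2 fell in U17_KD by 0.77, 0.58 and 0.49 (limma adjusted p = 6.50e-07, 2.30e-04 and 0.015). The other kept probe of Irgm1 differed by -0.01 (limma adjusted p = 0.953). Mx1, Mx2, Rsad2 and Cxcl10, also on the list, were detected on no array.

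**Figure D4:**
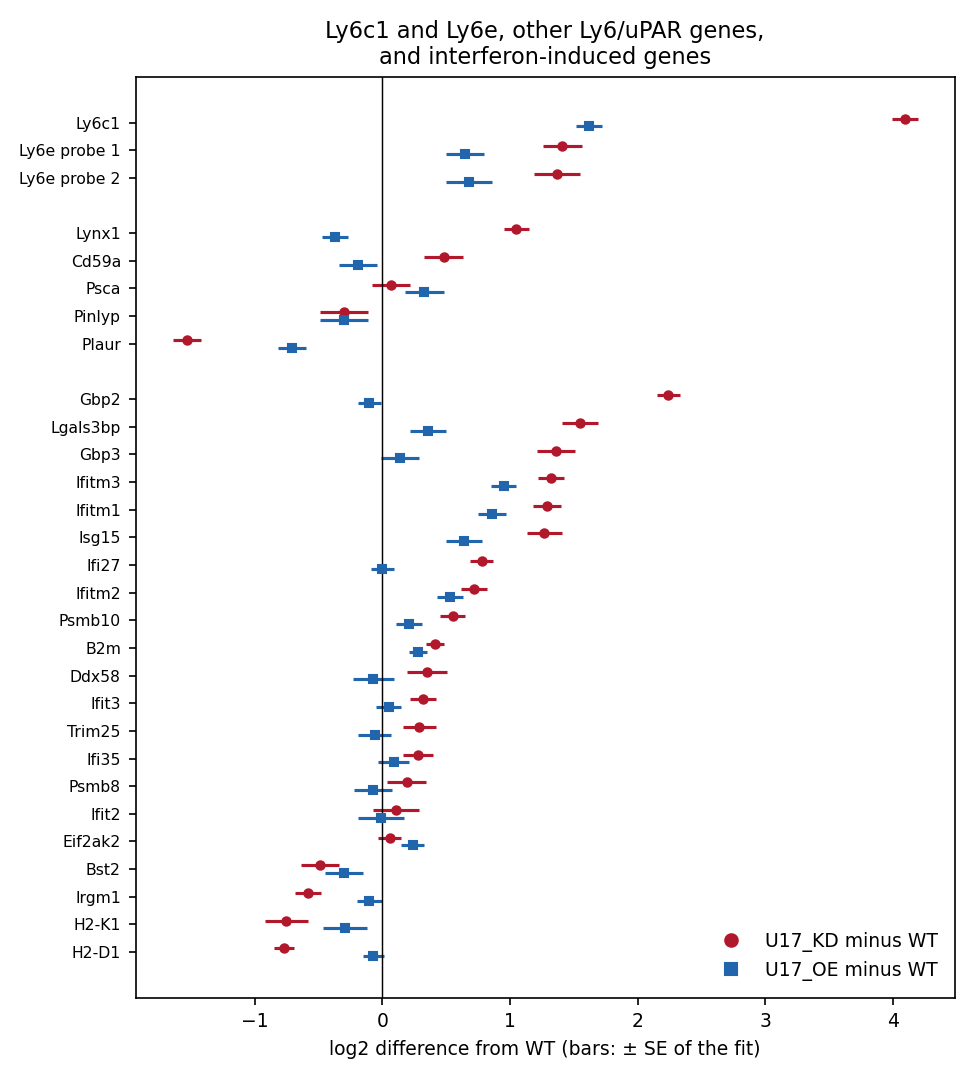
Log2 differences from WT in U17_KD (red circles) and U17_OE (blue squares), with bars of ± SE of the fit, for Ly6c1 and both Ly6e probes, the other kept Ly6/uPAR genes and the kept interferon-induced genes. Ly6c1 at 4.09 lies beyond every other gene drawn, Plaur lies on the opposite side, and Gbp2 is far from 0 in U17_KD alone; points of genes below detection in a group, such as Gbp3, are fitted values and not bounds.

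Of 19 listed interferon receptors and signalling genes, 12 were kept, and they were not called more often than genes at large. In U17_KD 3 rose and 1 fell (33.3% called, against 40.5% of all genes), in U17_OE 1 rose and 0 fell (8.33% called, against 12.8%), and 3 were higher and 1 lower in U17_KD than in U17_OE (33.3% called, against 33.1%). Their median differences from WT were 0.11 and 0.09. Irf1, an interferon-induced transcription factor, rose by 1.05 ± 0.13 in U17_KD (limma adjusted p = 3.43e-06), with a difference of 0.21 in U17_OE (limma adjusted p = 0.354). Another of its 4 kept probes passed in U17_OE, at 0.48 ± 0.10 (limma adjusted p = 0.00447). All 4 were above WT there, but only that probe passed. Stat2, a transducer of type I interferon signals, rose by 0.64 in U17_KD and by 0.50 in U17_OE (limma adjusted p = 0.00215 and 0.0345), and Ifngr1, a chain of the interferon gamma receptor, rose by 0.43 in U17_KD (limma adjusted p = 0.0013). Ifngr2, the partner chain, fell by 0.30 in U17_KD (limma adjusted p = 0.0397), but its other probes did not pass. Socs3, a feedback inhibitor, differed between the clones by 0.31 (limma adjusted p = 0.047). The Stat2 call in U17_OE and the Ifngr2 call were lost under 8 of 22 alternatives each, and the Socs3 call under 14; each of the 3 was lost without 1 or another single array.

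Genes for making and attaching the GPI anchor were called in U17_KD in shares close to those of all genes. Of 31 listed, 25 were kept; 5 rose and 6 fell in U17_KD (20.0% and 24.0%, median 0.02), against 20.0% and 20.4% of all genes. In U17_OE 1 of 25 rose and 3 fell (median -0.02), against 6.48% and 6.37% of all genes. Between the clones 3 of 25 were higher and 2 lower in U17_KD, against 16.5% each way. Pigf, which helps to add the ethanolamine phosphate bridge, fell by 0.94 in U17_KD (limma adjusted p = 3.28e-06), and Pigt, a subunit of the transamidase that attaches the anchor, fell by 0.85 (limma adjusted p = 0.0207; lost without replicate 3 or 4 of WT or replicate 3 or 4 of U17_KD). Pigk, the catalytic subunit of the transamidase, fell by 0.72 in U17_OE (limma adjusted p = 0.000682). Pigp, of the enzyme that starts anchor synthesis, rose by 0.78 in U17_KD and 0.62 in U17_OE (limma adjusted p = 3.77e-06 and 0.000313). Pigw, an inositol acyltransferase, was detected on 4 WT arrays and 0 others, at least 1.54-fold lower in each clone. Pigb, a mannosyltransferase, fell by 0.42 in U17_OE (limma adjusted p = 0.0453; lost under 15 of 22). Pign and Mppe1 were higher in U17_KD than in U17_OE by 0.61 and 0.47 (limma adjusted p = 0.00353 and 0.0095).

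Of 36 other GPI-anchored proteins listed, 15 were kept. In U17_KD 4 rose and 4 fell (26.7% each way, median -0.10), against 20.0% and 20.4% of all genes. In U17_OE 2 rose and 2 fell (13.3% each way, median 0.07), against 6.48% and 6.37%, and between the clones 4 were higher and 3 lower in U17_KD (26.7% and 20.0%), against 16.5% each way. With so few genes, these counts are not read as a property of the list. Gpc1, a heparan sulphate proteoglycan, rose by 1.35 in U17_KD and 0.32 in U17_OE (limma adjusted p = 3.30e-10 and 0.0168; the U17_OE call was lost under 3 of 22 alternatives, among them without WT replicate 1). Reck, an inhibitor of matrix metalloproteases, rose by 0.68 in U17_KD (limma adjusted p = 0.00172), and Rgmb, a BMP co-receptor, fell by 0.93 (limma adjusted p = 9.27e-06). Cd55, which dissociates complement convertases, was detected on 0 U17_KD arrays and 4 WT arrays, at least 1.53-fold lower in U17_KD. Gpc6, a relative of Gpc1, was detected only in U17_OE, at least 1.85-fold higher there than in WT. Hyal2 and Efna5 fell in U17_OE by 0.40 and 0.25 (limma adjusted p = 0.0428 and 0.0443), calls lost under 13 and 16 of 22 alternatives.

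TGF-beta receptors, SMADs and ligands were listed because Sca-1 has been tied to TGF-beta signalling in mouse cells. Of 18 listed, 13 were kept: 4 rose and 0 fell in U17_KD (30.8% rose, median 0.13), against 20.0% and 20.4% of all genes. In U17_OE 0 rose and 1 fell (7.69% fell, median -0.02), against 6.48% and 6.37%. Between the clones 5 were higher and 1 lower in U17_KD (38.5% and 7.69%), against 16.5% each way. The 4 were Tgfb2, Smad6, Tgfbr2 and Tgfbr3, up by 0.67, 0.66, 0.56 and 0.31 (limma adjusted p = 0.0118, 0.00172, 5.35e-05 and 0.00986). Smad3, a signal transducer, fell by 0.36 in U17_OE (limma adjusted p = 0.00745). Tgfb3 was higher in U17_KD than in U17_OE by 0.46 (limma adjusted p = 0.0102).

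Because Ly6 antigens mark other cell types, marker lists were read beside them. Fibroblast markers were detected on all 4 arrays for 10 of 11 genes in U17_KD, 9 of 11 in U17_OE and 11 of 11 in WT; Lum, lumican, was detected on 0 arrays of either clone. Their summed intensity was 69355 to 72580 in U17_KD, 54870 to 65672 in U17_OE and 55470 to 62807 in WT, and 7 of 11 rose and 2 fell in U17_KD (63.6% and 18.2%), against 20.0% and 20.4% of all genes. In U17_OE 2 rose and 1 fell (18.2% and 9.09%), against 6.48% and 6.37%. Of 10 haematopoietic markers with a probe, 9, 9 and 8 were detected on no array of U17_KD, U17_OE and WT, among them Ptprc, Itgam and Adgre1. Their sums were 14.2 to 62.0, 35.1 to 56.8 and 17.5 to 85.5. In U17_KD 1 of the 10 was detected on all 4 arrays, against 0 in U17_OE and 0 in WT. It was the only kept gene of that list, differed by 0.05 from WT in U17_KD and was called in no comparison. Of 8 endothelial markers 6, 7 and 7 were undetected, Pecam1 and Cdh5 included, with sums of 104 to 143, -11.1 to 73.4 and 19.9 to 36.1. Kdr, a VEGF receptor, was detected on 2 arrays of each group. Vwf, von Willebrand factor, was detected on 4 U17_KD arrays and at least 2.31-fold higher there than in WT at 1 probe. That probe passed the detection filter only through U17_KD, so no p-value is given. The other Vwf probe was detected on 0 arrays. Of 10 mesenchymal progenitor markers 5 were detected on all arrays of each group and 5 on none, with sums of 9765 to 11763, 7900 to 11554 and 10474 to 12984. Of the 5 kept, 2 rose and 1 fell in U17_KD (40.0% and 20.0%). In U17_OE 0 rose and 2 fell (0.00% and 40.0%), against the shares of all genes given above. Epithelial and skeletal muscle markers had sums of at most 163 and 92.7. Of 3 kept epithelial markers 0 rose and 2 fell in U17_KD (0.00% and 66.7%), and 0 were called in U17_OE. Of 2 kept skeletal muscle markers 0 were called. The part of the marker genes in the Ly6c1 and Ly6e values was not tested.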

How the data were processed

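Per the labels' protocols, oligo-dT primed, biotin-labelled cDNA was hybridised, and GenomeStudio 2010 is named in the submitters' processing notes. The authors deposited a table of normalized intensity on a linear scale, background subtracted, with 37.7% of values below 0. The sources used here do not give the method that made the arrays comparable, and no further normalization was applied. A second table of unnormalized intensity gives each probe's detection p-value, per the file headers. Of its 48 columns, 40 were not used, because array names occur in no label or because they hold bead statistics.

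Background mean 0.492 and SD 15.8, estimated on the WT arrays, entered the normexp correction, followed by log2 with an offset of 16. A probe counted as detected at 30.5 or more, which on WT arrays corresponds to a detection p-value under 0.05; the rules disagreed for 0.155 to 1.51% of probes. Per array 15820 to 15832 probes were detected, and the 16706 probes of 45281 detected on 4 or more arrays were tested. Names came from the platform annotation (34885 probes with 1 symbol). The kept probe with the highest mean spoke for its gene.

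Differences were fitted with limma 3.58.1 in R 4.3.3 over 3 groups and 12 arrays (9 residual degrees of freedom, two-sided, trend), with Benjamini-Hochberg adjustment over all tested probes. The fit was tested on simulated data. Where every array of a group was below detection, the fold is a lower bound, written as at least N-fold. Gbp3, Gpc6, Pigw and Vwf passed the detection filter through a single group, so their calls against that group were favoured in advance. They stay in the counts of their lists, as such genes do in the shares of all genes. No genome build is named for the arrays; coordinates belong to the RefSeq promoter table.

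The members and lists were chosen with earlier results of these data known, so the counts of each list are a description. Of each list, up to 4 called genes with the largest absolute difference per comparison are named. Every kept family gene and the 5 genes with the highest r to each member are named too. Marker genes, and the interferon-induced genes given as falling or undetected, were named after their values were seen. The number of arrays limits the precision. Other background corrections, offsets, filters, normalization, weights, a replicate block and each array left out were tried.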

Additional observations from a re-analysis of the deposited data

Results flagged for a closer look

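The arrays of 10 probes in 3 groups, 30 groups in all, were searched. In 4 groups of 4 arrays, 1 array lay far from the other three, its gap to the nearest one as a share of the group's range, exceeding Dixon's 95% critical value; chance alone gives this in about 1 of 20 groups. For Ly6e at ILMN_2776278 the gap was 0.899 in WT, where replicate 3 was low at 1360. At the other Ly6e probe the same array was lowest too, at 529, and Ly6c1 there was 0.01 from its group mates. Plaur had a gap of 0.953 in U17_OE, where replicate 2 was high at 600, and of 0.871 in WT, where replicate 3 was high at 866. Gbp2 had a gap of 0.849 in U17_OE, where replicate 2 was high at 235. No cause was tested.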

How the results depend on the processing

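Of 69 values of named genes, 22 alternatives gave 1507 comparisons; 11 more, of 5 genes (Cd55, Gbp3, Gpc6, Pigw and Pinlyp), had no value because the stricter filter of 8 arrays dropped their probes. Of the 1507, 1413 stayed on their side of the threshold and 94 lost the call. No value called in the main fit or in the alternative turned direction. Several alternatives could not turn it, because they leave the difference itself unchanged. These are the filters, the fit without a trend, the fit of only 2 groups and the replicate block. Leaving out an array of the group outside a comparison is another. Direction was not compared where neither fit called the value. In all, 11 values lost the call at least once. The Ly6c1 difference from WT in U17_KD was 3.73 with normexp fitted to each array, 3.74 with an offset of 50 and 4.28 with values floored at 16, and in U17_OE it was 1.37, 1.38 and 1.75 in the same settings. With each array left out it ran from 4.05 to 4.14 in U17_KD and from 1.57 to 1.68 in U17_OE. The Ly6e differences ran from 1.33 to 1.46 and 1.27 to 1.43 in U17_KD, and from 0.45 to 0.76 and 0.42 to 0.82 in U17_OE. Probes called between U17_OE and WT numbered 1193 when only those groups were fitted, and 1261 to 2981 with each array left out. Other family genes called there numbered 1 without the detection filter, with only those groups, or with the replicate block, and 1 to 2 with each array left out; list genes called numbered 11 with only those groups and 12 to 20 with each array left out.

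The replicate numbers did not pair the arrays: deviations of same-numbered arrays had r of -0.382 to 0.0891 over 12 pairs, and 0 arrays correlated best with their own number. With the replicate block 5659 probes were called between U17_KD and WT (6237 without), 1398 between U17_OE and WT (1925) and 4397 between the clones (5024). The block is balanced over the groups, so it cannot change the Ly6c1 and Ly6e differences, only their SEs. For U17_KD minus WT the SEs were 0.12 for Ly6c1 and 0.16 and 0.19 for Ly6e, against 0.10, 0.15 and 0.18 without it. Values near the detection level of 30.5 limit folds of dim probes. The level was set on WT arrays, and whether it holds on the clone arrays was not tested.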

Other observations

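Genes whose deviations from the group means were most like those of Ly6c1 over the 12 arrays were Neurl2 (r = 0.969), Il4i1 (0.902), Ccdc61 (0.897), Trmu (0.895) and Taf11 (0.882). Without U17_OE replicate 3, a choice made after seeing the data, 2 of these 5 remained. For Ly6e they were Yif1b (0.984), Ergic3 (0.976), Dhrs1 (0.976), Pcolce (0.975) and Cln6 (0.975), of which 4 remained. Yif1b and Ergic3 encode proteins of the early secretory pathway, and their own differences from WT were small, at -0.01 and 0.14 in U17_KD (limma adjusted p = 0.951 and 0.472). Pcolce, an enhancer of procollagen processing, rose by 1.53 in U17_KD (limma adjusted p = 3.31e-09).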
